A study of Mus musculus with 8 samples.

Results

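The 10 genes described here encode the 5 subunits of the transcription factor NF-kappaB (Nfkb1, Nfkb2, Rel, Rela and Relb) and 5 proteins that regulate it, most of them as feedback inhibitors (Nfkbia, Nfkbid, Nfkbie, Nfkbiz and Tnfaip3). They were chosen by gene name from the 38215 genes of the expression tables, and all 10 were among the 13397 genes that passed a filter on low counts and were tested. Transcripts of these genes were compared between regulatory T cells of the bone marrow (BM-Treg) and of the spleen (SP-Treg), 4 libraries each.

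The cells were FoxP3+ Treg sorted from untreated B6.FoxP3-GFP mice aged 12 weeks, in which a green fluorescent protein marks cells that express FoxP3. The labels give the genotype of every library as C57Bl/6. BM-Treg replicates 1 to 3 are labelled batch 1 and female, and all other libraries, BM-Treg replicate 4 among them, batch 3 and male. Batch and sex therefore cannot be told apart, and tissues can be compared within a batch only through BM-Treg replicate 4. The methods call the libraries biological replicates. The titles of the SP-Treg libraries hold number ranges that overlap from replicate to replicate, and their meaning is not stated in the sources used here. If they were pools that share mice, the SP-Treg libraries would not be independent. The p-values, which set the tissue difference against the spread between libraries, would then be too small. The total of gene counts ranged from 12427136 to 21921252 over the BM-Treg libraries and from 12924964 to 14121975 over the SP-Treg libraries.

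NF-kappaB subunits act as dimers. In resting lymphocytes the IkappaB proteins retain them in the cytoplasm, and signals from the T cell receptor, CD28 and TNF receptors lead to the breakdown of IkappaB and to the entry of the dimers into the nucleus. There they induce, among many genes, those of their own inhibitors, which closes a feedback loop, and in Treg the subunits c-Rel and p65 are needed for development and for the effector state.

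Dimers bind a 10-base motif, the kappaB consensus, which was searched on both strands of the RefSeq promoter windows (GRCm38.p6, from 250 bases before to 50 bases after a transcript's start). A match was present in 4.50% of 32817 windows of this length and in at least 1 window of 5.13% of the genes. Windows existed for Nfkb2, Rel, Rela, Nfkbia, Nfkbid, Nfkbie and Tnfaip3, and 6 of these 7 members had a match, the exception being Rela. Nfkb1, Relb and Nfkbiz had no window. Stretches before a transcript start are shown because the transcripts of Rel and Tnfaip3 are those the results turn on and Nfkbia and Nfkbie are their closest comparison. Capitals mark matches, which overlap each other in Rel, and each stretch is written along the strand of the gene. Those of Tnfaip3 lie within the annotated gene, before the start of another of its transcripts. A match is a description of these letters and not evidence of binding.
Rel (minus strand, chr11:23770971-23771081): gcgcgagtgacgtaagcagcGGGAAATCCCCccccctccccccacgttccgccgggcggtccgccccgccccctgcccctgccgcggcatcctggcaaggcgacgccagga
Tnfaip3 (minus strand, chr10:19015516-19015545): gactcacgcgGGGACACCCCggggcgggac
Tnfaip3 (minus strand, chr10:19015411-19015432): aatttccatcGGAAATCCCCct
Nfkbia (minus strand, chr12:55492648-55492696): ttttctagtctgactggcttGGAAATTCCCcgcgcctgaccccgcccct
Nfkbie (plus strand, chr17:45555574-45555699): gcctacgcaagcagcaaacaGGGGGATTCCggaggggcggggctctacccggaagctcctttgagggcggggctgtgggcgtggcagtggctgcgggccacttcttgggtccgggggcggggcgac

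Of the 10 members, 2 differed between the tissues by edgeR (quasi-likelihood F test, p adjusted by Benjamini-Hochberg over all genes tested, threshold 0.05), where 8.75% of all genes did. Both, Rel and Nfkb1, encode subunits and were lower in BM-Treg (2 of 10, against 5.02% of all genes), and no member was called higher (0 of 10, against 3.72%). Tnfaip3, which encodes the deubiquitinase A20, was higher in every BM-Treg library than in every SP-Treg library but missed the threshold. Of all genes called, 42.6% were higher in BM-Treg in the edgeR fit, 51.3% in edgeR with at least 10 counts required in every library, and 63.0% on log2(FPKM + 1) in limma-trend, which changes both the unit and the test. The median log2 fold change of BM-Treg over SP-Treg was -0.04 over the members and -0.01 over all genes tested. In bulk RNA, fewer cells that express a gene and less RNA per cell cannot be told apart.

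**Figure D1:**
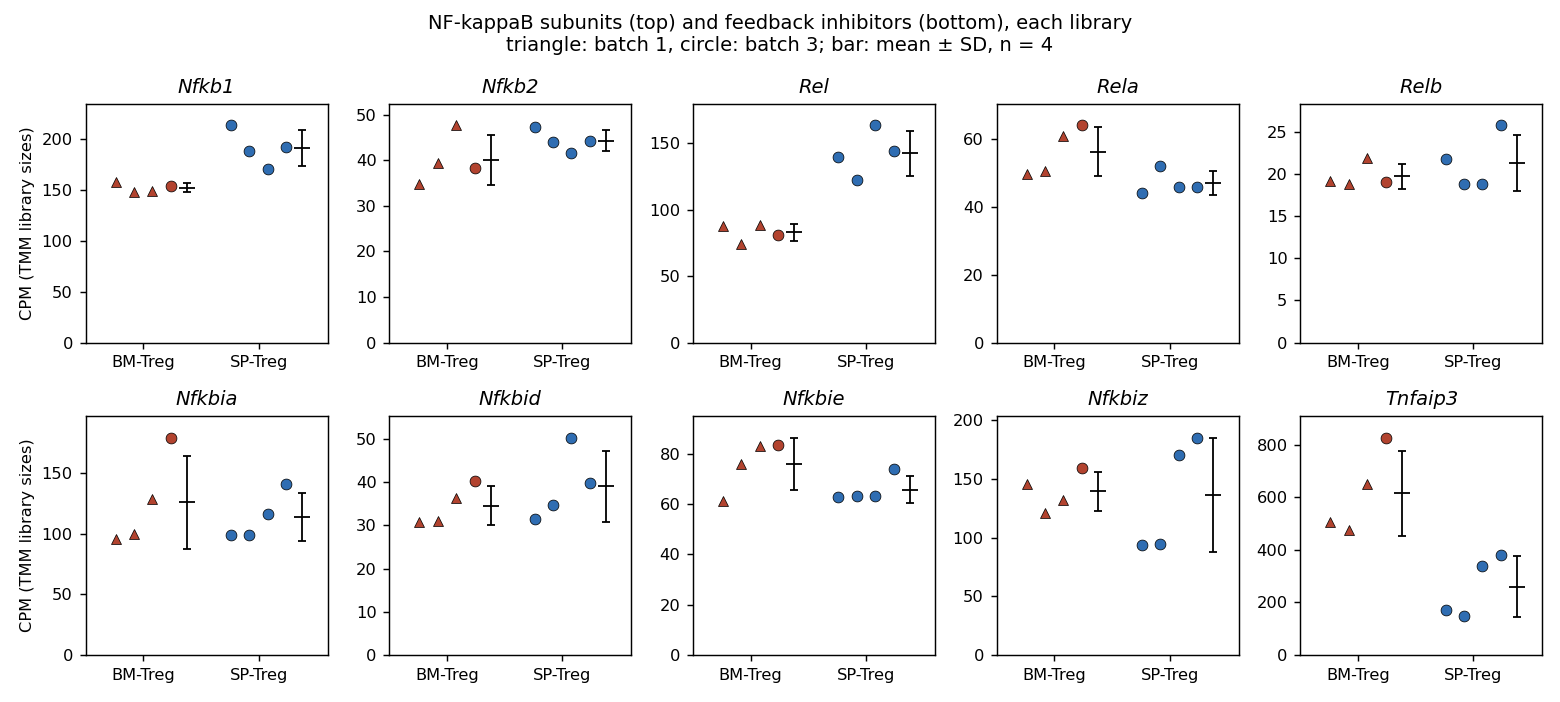
CPM (counts per 1000000, with TMM library sizes) of the 10 members in each library, with subunits in the upper row and inhibitors in the lower row. Triangles are libraries of batch 1, circles are libraries of batch 3, and bars give mean ± SD (n = 4); the tissues do not overlap for Nfkb1, Rel and Tnfaip3.

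Rel (ENSMUSG00000020275, chromosome 11, 23741514 to 23770970, GRCm38) encodes c-Rel, a subunit with an activation domain that is typical of lymphocytes. Levels are given in CPM, counts per 1000000 counts of a library after TMM scaling. Rel was measured at 87.4, 74.3, 88.5 and 81.2 CPM in BM-Treg replicates 1 to 4 and at 140, 122, 163 and 144 CPM in SP-Treg replicates 1 to 4. The highest BM-Treg library lay below the lowest SP-Treg library, and BM-Treg replicate 4 lay within the range of the other BM-Treg libraries. SP-Treg had 1.72 times the Rel of BM-Treg, and the log2 fold change was -0.78 (SE 0.11, where SE is the standard error; edgeR adjusted p = 0.000909) over all libraries and -0.81 within batch 3. Rel was called in all 17 other fits of these data, with a highest edgeR adjusted p of 0.00542 when a library was left out and of 0.0450 with batch as a term.

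Nfkb1 (ENSMUSG00000028163, chromosome 3, 135584655 to 135691547) encodes p105, the precursor of the p50 subunit, which lacks an activation domain of its own. It was measured at 158, 149, 149 and 154 CPM in BM-Treg replicates 1 to 4 and at 214, 189, 170 and 193 CPM in SP-Treg replicates 1 to 4. The BM-Treg libraries lay close together, all below the SP-Treg libraries, of which replicate 3 was the lowest and replicate 1 the highest. The log2 fold change of Nfkb1 was -0.33 (SE 0.10, edgeR adjusted p = 0.0454) over all libraries and -0.31 within batch 3. This call was close to the threshold: it was kept when SP-Treg replicate 3 was left out (edgeR adjusted p = 0.0333) and lost when any other library was left out (0.0724 to 0.137). It was also lost with batch as a term (edgeR adjusted p = 0.310) and on log2(FPKM + 1) in limma-trend (adjusted p = 0.308), and kept in DESeq2 (0.0132) and in limma-voom (0.0478).

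The remaining subunits overlapped between the tissues in CPM. On the FPKM scale (fragments per kilobase of transcript and 1000000 reads) Rela did not overlap (19.6 to 23.98 in BM-Treg and 16.1 to 18.7 in SP-Treg), and Nfkb1 did (54.3 to 62.7 and 57.4 to 80.6). Rela (ENSMUSG00000024927), which encodes p65, the partner of p50 in the most common dimer, was measured at 49.8, 50.6, 60.8 and 64.1 CPM in BM-Treg replicates 1 to 4 and at 44.2, 52.2, 45.98 and 46.01 CPM in SP-Treg replicates 1 to 4. BM-Treg replicates 3 and 4 lay above all SP-Treg libraries, while BM-Treg replicates 1 and 2 lay below SP-Treg replicate 2. The log2 fold change of Rela was 0.26 (SE 0.12, edgeR adjusted p = 0.201). Nfkb2 and Relb encode the p100 precursor and its usual partner, the subunits of the alternative pathway. Nfkb2 lay between 34.9 and 47.7 CPM in BM-Treg and between 41.6 and 47.3 CPM in SP-Treg, with a log2 fold change of -0.14 (edgeR adjusted p = 0.514). Relb was the least abundant member, at 18.8 to 21.97 CPM in BM-Treg and 18.8 to 25.8 CPM in SP-Treg, with a log2 fold change of -0.11 (edgeR adjusted p = 0.690). Nfkb2 is overlapped on the opposite strand by Psd and by the noncoding AC114539.1, and Nfkb1 on its own strand by Gm43430, so that reads shared with these genes make their counts less certain.

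Because Rel was lower and Rela was not, the make-up of the subunit transcripts was compared within each library on the FPKM scale, a comparison chosen after the values had been seen and given without a test. Rel took 24.4%, 22.5%, 23.8% and 22.7% of the summed FPKM of the 5 subunits in BM-Treg replicates 1 to 4 and 30.6%, 29.1%, 37.1% and 30.6% in SP-Treg replicates 1 to 4. Rela took 14.4%, 15.8%, 16.9% and 18.4% in BM-Treg and 9.96%, 12.8%, 10.8% and 10.1% in SP-Treg, in the same order. For both genes the tissues did not overlap, with Rel taking the smaller share and Rela the larger share in BM-Treg. The share of Nfkb1, the most abundant subunit by gene FPKM, was 43.2% ± 2.21 in BM-Treg and 42.6% ± 2.91 in SP-Treg (SD, n = 4 each), a difference smaller than the spread. Gene FPKM includes noncoding transcripts. For Nfkb1 the 3 annotated as noncoding took 25.6% to 35.3% of its counts in BM-Treg and 21.2% to 35.7% in SP-Treg. The rank of Nfkb1 and the shares of the summed FPKM therefore do not describe coding RNA alone. The ratio of Rel to Rela, which does not depend on scaling between libraries, was 1.70, 1.42, 1.41 and 1.23 in BM-Treg replicates 1 to 4 and 3.07, 2.27, 3.45 and 3.03 in SP-Treg replicates 1 to 4. BM-Treg replicate 4 had the lowest ratio of all 8 libraries, and SP-Treg replicate 2 had the lowest ratio among SP-Treg, still above every BM-Treg library.

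**Figure D2:**
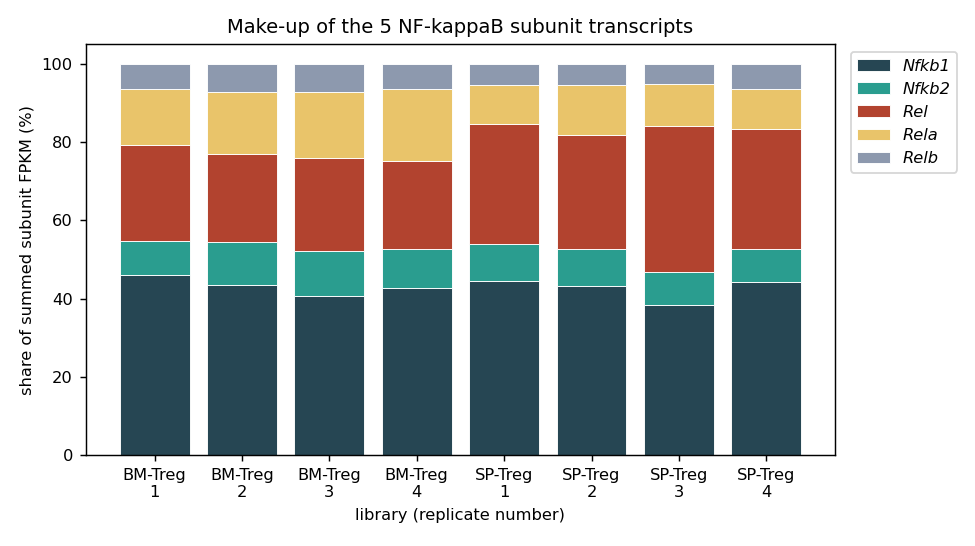
Share of each subunit in the summed FPKM of the 5 subunits, in percent, for each library. Rel takes 22.5% to 24.4% in the BM-Treg libraries and 29.1% to 37.1% in the SP-Treg libraries, while the share of Nfkb1 is similar in both tissues.

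Tnfaip3 (ENSMUSG00000019850, chromosome 10, 19000910 to 19015657) encodes A20, an ubiquitin-editing enzyme that stops signals upstream of the IkappaB kinase and is itself induced by NF-kappaB. It was measured at 506, 476, 652 and 827 CPM in BM-Treg replicates 1 to 4 and at 173, 147, 339 and 381 CPM in SP-Treg replicates 1 to 4. The tissues did not overlap, and within SP-Treg replicates 1 and 2 lay far below replicates 3 and 4. Tnfaip3 was 2.36-fold higher in BM-Treg, a log2 fold change of 1.24 (SE 0.35, edgeR adjusted p = 0.0745) over all libraries and 1.67 within batch 3. It passed the threshold in 4 of 17 other fits, among them DESeq2 (adjusted p = 0.0108) and log2(FPKM + 1) in limma-trend (adjusted p = 0.0397). Tnfaip3 missed it in all 8 edgeR fits that left out a library (0.0538 to 0.153) and in limma-voom (adjusted p = 0.0632). The edgeR fits with at least 10 counts in every library (adjusted p = 0.0566), without a filter beyond 1 count (0.152) and with batch as a term also missed it. Its log2 fold change lay between 1.04 and 1.67 over the other fits. Rel, Nfkb1 and Tnfaip3 made up 3 of 10 members without overlap between the tissues, where 16.2% of all genes tested had none.

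Nfkbia (ENSMUSG00000021025) encodes IkappaB alpha, the inhibitor that is degraded and resynthesised fastest. It was measured at 95.6, 99.3, 129 and 179 CPM in BM-Treg replicates 1 to 4 and at 98.97, 98.5, 116 and 141 CPM in SP-Treg replicates 1 to 4. All SP-Treg libraries lay within the range of BM-Treg, of which replicate 4 was the highest library. The log2 fold change of Nfkbia was 0.14 (SE 0.20, edgeR adjusted p = 0.721) over all libraries and 0.65 within batch 3. Its sign rested on BM-Treg replicate 4, without which the log2 fold change was -0.07. Nfkbie, which encodes IkappaB epsilon, another cytoplasmic inhibitor, was measured at 61.4, 76.1, 83.2 and 83.5 CPM in BM-Treg replicates 1 to 4 and at 62.8, 63.4, 63.1 and 74.0 CPM in SP-Treg replicates 1 to 4. BM-Treg replicate 1 lay below all SP-Treg libraries and the other BM-Treg libraries lay above them, for a log2 fold change of 0.21 (edgeR adjusted p = 0.310).

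Nfkbid and Nfkbiz encode nuclear IkappaB proteins that bind p50 on DNA and modulate transcription rather than retaining dimers in the cytoplasm, and they are grouped with the inhibitors here although they can also activate target genes. Nfkbid lay between 30.7 and 40.3 CPM in BM-Treg and between 31.6 and 50.3 CPM in SP-Treg, with a log2 fold change of -0.18 (edgeR adjusted p = 0.524) that became 0.05 with batch as a term. Nfkbiz was measured at 146, 121, 132 and 159 CPM in BM-Treg replicates 1 to 4 and at 93.8, 94.7, 170 and 185 CPM in SP-Treg replicates 1 to 4. SP-Treg replicates 1 and 2 lay below every BM-Treg library and SP-Treg replicates 3 and 4 above every BM-Treg library, so that the mean of the SP-Treg falls where no SP-Treg library lies. The log2 fold change of Nfkbiz was 0.04 (SE 0.23, edgeR adjusted p = 0.947), and it was -0.03 without BM-Treg replicate 4, -0.09 without SP-Treg replicate 1 and -0.11 without SP-Treg replicate 2. SP-Treg replicates 1 and 2 thus lay apart from SP-Treg replicates 3 and 4 in both Nfkbiz and Tnfaip3.

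**Figure D3:**
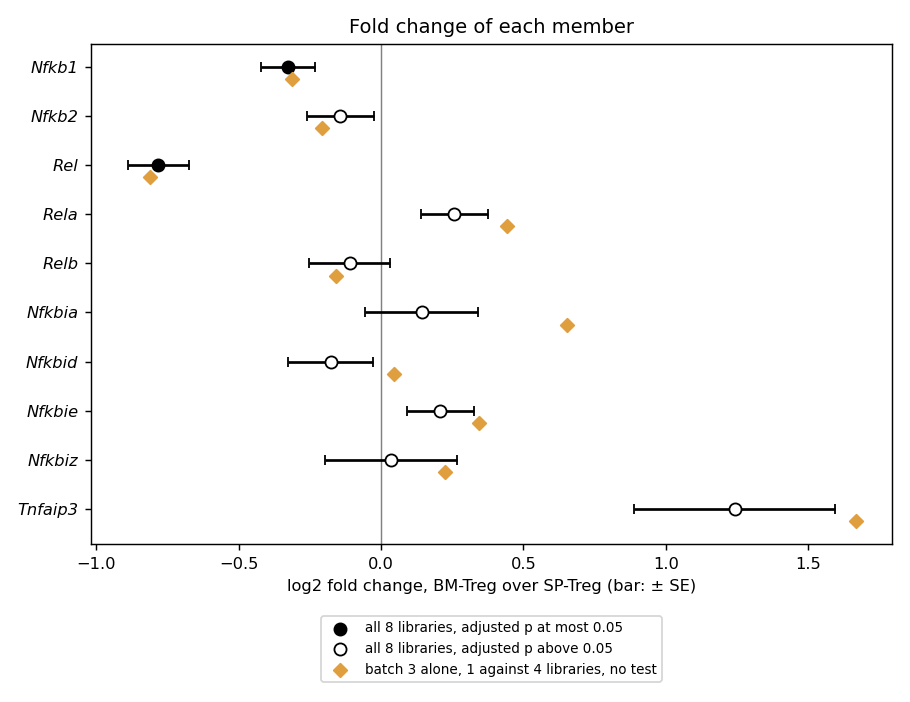
Log2 fold change of BM-Treg over SP-Treg for each member (circles, with bars of ± standard error, n = 4 libraries per tissue) and the value within batch 3 alone, where BM-Treg has replicate 4 only (diamonds, no test). Filled circles, at -0.33 for Nfkb1 and -0.78 for Rel, mark an adjusted p of at most 0.05, and Tnfaip3 has the largest value, 1.24, with a standard error of 0.35.

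Within batch 3, BM-Treg replicate 4 differed from the SP-Treg in the same direction as the whole set for 9 of the 10 members. The whole set holds these same libraries, so that much of this agreement is built in and nothing is concluded from it. The log2 fold changes in that batch were 0.44 for Rela, 0.34 for Nfkbie and 0.23 for Nfkbiz, each larger than over all libraries, and 0.05 for Nfkbid, of opposite sign. For Nfkb2 and Relb they were -0.21 and -0.16. BM-Treg replicates 1 to 3, which are of batch 1, differed from the SP-Treg by -0.77 for Rel, -0.33 for Nfkb1 and 1.07 for Tnfaip3 on the log2 scale, a comparison across batches. In this comparison Nfkbia (-0.075), Nfkbiz (-0.033) and Nfkbid (-0.256) had the opposite sign to their values within batch 3. The remaining members had the same sign in both comparisons, which share the SP-Treg libraries.

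Levels of the members were ordered per length, by mean FPKM. In BM-Treg the order was Tnfaip3 (186 ± 32.3), Nfkbia (85.0 ± 22.4), Nfkb1 (57.5 ± 3.76), Nfkbiz (40.6 ± 3.29), Nfkbie (33.2 ± 4.16), Rel (31.2 ± 2.83), Rela (21.8 ± 2.21), Nfkbid (19.5 ± 2.52), Nfkb2 (13.7 ± 2.02) and Relb (9.08 ± 0.892; SD, n = 4 each). Neighbours whose libraries overlapped in this order were Nfkbiz and Nfkbie, Nfkbie and Rel, and Rela and Nfkbid. In SP-Treg, Tnfaip3 (75.7 ± 38.5), Nfkbia (73.9 ± 12.1) and Nfkb1 (68.8 ± 10.4) led with overlapping libraries, followed by Rel (51.1 ± 6.10), Nfkbiz (37.7 ± 12.3), Nfkbie (27.4 ± 2.64) and Nfkbid (20.2 ± 3.24; SD, n = 4 each). Neighbours that overlapped in SP-Treg were also Rel and Nfkbiz, Nfkbiz and Nfkbie, Nfkbid and Rela, and Rela and Nfkb2. Rel thus stood at rank 6 of the members in BM-Treg and at rank 4 in SP-Treg, where it overlapped Nfkbiz, and Tnfaip3 was clear of the other members in BM-Treg alone. The ratio of Tnfaip3 to Nfkbia, 2 inhibitors that NF-kappaB induces, was 2.52, 2.20, 2.22 and 1.96 in BM-Treg replicates 1 to 4 and 0.683, 0.602, 1.41 and 1.27 in SP-Treg replicates 1 to 4. The tissues did not overlap in this ratio, which was chosen after the values had been seen and was not tested. Gene FPKM includes noncoding Tnfaip3 transcripts. The shorter of them, ENSMUST00000154749, alone took 21.5% to 29.8% of Tnfaip3 FPKM in BM-Treg and 9.73% to 25.6% in SP-Treg. Neither the rank of Tnfaip3 nor its ratio to Nfkbia was worked out without these transcripts.

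Expected counts per transcript show which annotated forms were counted, although estimates for overlapping transcripts are uncertain. Rel, Rela, Nfkbia and Nfkbie have 1 transcript each in the tables. For the other 6 members the transcript with the most counts took a share that overlapped between the tissues (0 of 6, where 4.55% of genes with several transcripts showed no overlap). For Relb the leading transcript, ENSMUST00000094762, took between 0 and 57.3% of the counts in BM-Treg and between 0 and 68.8% in SP-Treg, an exchange with another coding transcript of nearly equal length that makes this share uninformative.

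For Tnfaip3 the leading transcript was the coding ENSMUST00000105527, which took 57.6%, 63.3%, 66.8% and 67.0% of the counts in BM-Treg replicates 1 to 4 and 79.7%, 80.7%, 59.7% and 62.0% in SP-Treg replicates 1 to 4. GENCODE M21 lists 2 further Tnfaip3 transcripts as retained-intron forms, which keep intronic sequence and encode no A20. Together these took 40.4%, 34.2%, 28.8% and 27.5% of Tnfaip3 counts in BM-Treg replicates 1 to 4 and 13.5%, 18.5%, 37.6% and 32.8% in SP-Treg replicates 1 to 4. SP-Treg replicates 1 and 2, the libraries with the least Tnfaip3, had the smallest shares of retained-intron forms, and SP-Treg replicates 3 and 4 lay within the BM-Treg range. With these forms left out, Tnfaip3 was at 302, 313, 464 and 600 CPM in BM-Treg replicates 1 to 4 and at 149, 120, 212 and 256 CPM in SP-Treg replicates 1 to 4, without overlap. Of the 5 members with coding and noncoding transcripts, Relb was the only member whose share on the latter did not overlap (34.6% to 44.3% in BM-Treg and 28.8% to 33.8% in SP-Treg), where 4.16% of such genes had no overlap. The grouping of transcripts was chosen after the values had been seen and was not tested.

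Immediate early genes, which are transcribed within minutes of stimulation and also during the isolation of cells, are given beside Tnfaip3 and Nfkbiz for comparison. The summed CPM of the 14 genes listed was 2037, 2090, 2996 and 3319 in BM-Treg replicates 1 to 4 and 1306, 1597, 2030 and 1860 in SP-Treg replicates 1 to 4. BM-Treg replicates 3 and 4, with the most Tnfaip3, had the highest sums and SP-Treg replicates 1 and 2, with the least, the lowest sums, while BM-Treg replicate 1 and SP-Treg replicate 3 were nearly equal. The most abundant of these genes was Zfp36, an mRNA decay factor, at 788, 767, 1091 and 1490 CPM in BM-Treg and 457, 583, 840 and 731 CPM in SP-Treg, in the same order. Of the 13 genes tested, 5 were called higher in BM-Treg (Fosb, Junb, Jund, Dusp1 and Klf6, against 3.72% of all genes) and 2 lower (Egr1 and Egr2, against 5.02%), with edgeR log2 fold changes between -2.41 for Egr2 and 2.54 for Fosb. The tissues did not overlap in the sum. Single genes differed from the sum: within SP-Treg, Egr2 and Klf6 were higher in replicates 1 and 2 than in replicates 3 and 4. Leaving out libraries in turn kept the calls of Klf6, Egr1 and Egr2 and lost those of Fosb and Jund in 6 of 8 cases, of Dusp1 in 4 and of Junb in 2. With batch as a term, edgeR called Egr2 (adjusted p = 0.0392) and, just under the threshold, Klf6 (0.049993), and no longer Egr1 (0.172), Fosb (0.105), Junb (0.168), Jund (0.0709) or Dusp1 (0.125). The log2 fold change in that fit was smaller for Egr1 (-0.59) and no smaller for Fosb (3.13), Junb (1.32), Jund (0.92) and Dusp1 (1.57) than without the term. These genes other than Zfp36 were named after their values had been seen, and their part in the values of Tnfaip3 and Nfkbiz was not tested.

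**Figure D4:**
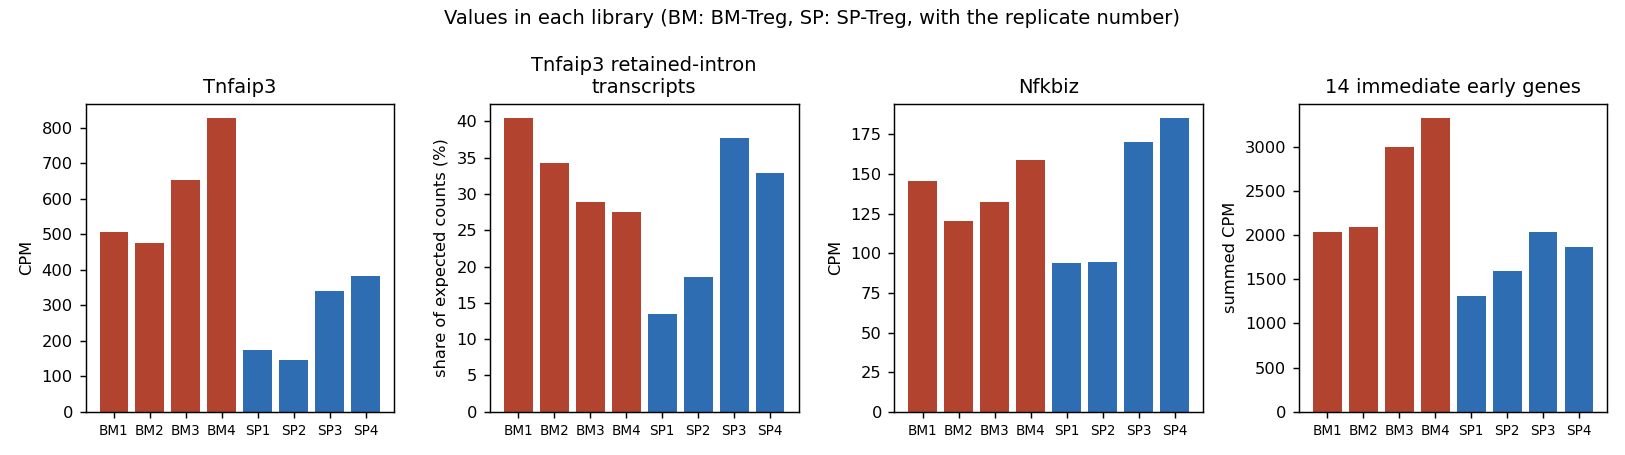
Tnfaip3 (CPM), the share of Tnfaip3 counts on retained-intron transcripts (percent), Nfkbiz (CPM) and the summed CPM of 14 immediate early genes in each library, BM-Treg in red and SP-Treg in blue. SP-Treg replicates 1 and 2 are the lowest in all 4 panels, with Tnfaip3 at 173 and 147 CPM.

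Other genes of the pathway were taken from lists around the members. Of 61 such genes, 58 were tested and 13 were called, against 8.75% of all genes, 11 of them lower and 2 higher in BM-Treg. The list of target genes held 8 of the 13, among 14 tested. Calls in the other lists were 0 of 2, 0 of 11, 1 of 9, 2 of 14 and 2 of 8. All lists were chosen with earlier results of these data known, so that no excess over the whole pathway is concluded from the pooled count. The median log2 fold change of the 58 genes was -0.08, beside -0.01 over all genes tested. With batch as a term, where BM-Treg replicate 4 stands for its tissue, 2 of these 58 were called. Without BM-Treg replicate 2 there were 7 of 59. Calls over all genes also fell, from 1172 of 13397 to 258 of 13397 with the batch term. Without BM-Treg replicate 2 they were 690 of 13621.

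With all libraries and the default filter, edgeR made none among the 2 other IkappaB genes or the 11 genes of the IkappaB kinase and the kinases upstream. The smallest adjusted p in these lists belonged to Nfkbib, which encodes IkappaB beta (log2 fold change 0.39, edgeR adjusted p = 0.0728), and to Map3k14, the kinase of the alternative pathway (0.28, adjusted p = 0.248). Nfkbib passed the threshold in edgeR with at least 10 counts in every library (adjusted p = 0.0488) and without BM-Treg replicate 1 (0.0384), and in DESeq2 (0.0434). Of 9 adaptors, which were TRAF and IAP genes, Tradd and Cflar, only Cflar, an inhibitor of caspase-8 induced by NF-kappaB, was called (1 of 9, near the 8.75% of all genes). Cflar was at 224, 192, 188 and 174 CPM in BM-Treg replicates 1 to 4 and at 339, 309, 254 and 247 CPM in SP-Treg replicates 1 to 4. It was lower in every BM-Treg library, with a log2 fold change of -0.56 (SE 0.12, edgeR adjusted p = 0.0104). The call of Cflar was lost on log2(FPKM + 1) in limma-trend, where the value was -0.16 (adjusted p = 0.588), and with batch as a term, where it was -0.72 (edgeR adjusted p = 0.0798).

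Partners of A20 are of interest beside Tnfaip3. Of 14 ubiquitin editors and A20 partners, Tnip3, which encodes an A20-binding inhibitor, was called lower (1 of 14, against 5.02% of all genes) and Sharpin, which encodes a subunit of the linear ubiquitin ligase, was called higher (1 of 14, against 3.72%). Tnip3 was at 3.01, 7.09, 11.03 and 8.43 CPM in BM-Treg replicates 1 to 4 and at 18.2, 13.1, 21.7 and 25.1 CPM in SP-Treg replicates 1 to 4. All BM-Treg libraries lay below all SP-Treg libraries, so that Tnip3 ran opposite to Tnfaip3, with a log2 fold change of -1.40 (SE 0.34, edgeR adjusted p = 0.0300). Sharpin had a log2 fold change of 0.37 (SE 0.10, edgeR adjusted p = 0.0377). Leaving out libraries in turn lost the call of Tnip3 in 5 of 8 cases (highest edgeR adjusted p 0.0974) and that of Sharpin in 7 of 8 (highest 0.110). Both calls were also lost with batch as a term, at log2 fold changes of -1.21 for Tnip3 and 0.42 for Sharpin.

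Among 8 receptors tested, Tnfrsf25, which encodes the death receptor DR3, was called higher (1 of 8, against 3.72% of all genes) and Cd28, the co-stimulatory receptor that signals to c-Rel, was called lower (1 of 8, against 5.02%). Tnfrsf25 was at 22.7, 20.3, 17.8 and 30.7 CPM in BM-Treg replicates 1 to 4 and at 11.3, 14.2, 10.7 and 15.4 CPM in SP-Treg replicates 1 to 4. The tissues did not overlap, and the log2 fold change was 0.82 (SE 0.19, edgeR adjusted p = 0.0136). Cd28 had a log2 fold change of -0.39 (SE 0.11, edgeR adjusted p = 0.0355), a call that leaving out a library removed in 6 of 8 cases (highest edgeR adjusted p 0.109). The call of Cd28 was also lost with batch as a term (log2 fold change -0.34) and on log2(FPKM + 1) in limma-trend (-0.29). Tnfrsf25 was called in all 17 other fits.

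Of 14 other target genes of NF-kappaB that were tested, 8 were called and all 8 were lower in BM-Treg (against 5.02% of all genes), and their list, which was chosen with earlier results of these data known, had a median log2 fold change of -0.83. The 8 count Bcl2a1b and Bcl2a1d separately. Of the 14, 4 had positive log2 fold changes and were not called: Bcl2l1 (0.34), Ltb (0.24), Gadd45b (0.18) and Sod2 (0.10). Icam1 (-0.16) and Il2ra (-0.62) were not called either. Tnf was at 10.9, 11.7, 9.89 and 15.0 CPM in BM-Treg replicates 1 to 4 and at 20.5, 28.6, 28.5 and 26.7 CPM in SP-Treg replicates 1 to 4. Cd83, a surface protein of activated lymphocytes, was at 30.7, 39.5, 42.9 and 26.3 CPM in BM-Treg replicates 1 to 4 and at 90.8, 88.3, 56.4 and 78.8 CPM in SP-Treg replicates 1 to 4. Every BM-Treg library lay below every SP-Treg library for Tnf (log2 fold change -1.14, SE 0.17, edgeR adjusted p = 0.00108) and for Cd83 (-1.17, 0.18 and 0.00176), as it did for Rel. Lta, the gene of lymphotoxin alpha, had a log2 fold change of -1.74 (SE 0.30, edgeR adjusted p = 0.00343). Bcl2a1b, a survival gene, had a log2 fold change of -1.29 (SE 0.21, edgeR adjusted p = 0.00283), but it shares reads with near-identical copies, Bcl2a1d (-1.27, also named after its value had been seen) among them, so that the value of each copy is uncertain. The other called genes of the list were Ccr7 (-1.30), Irf1 (-0.43) and Myc (-1.04), named after their values had been seen, and leaving out libraries in turn lost the calls of Irf1 in 7 of 8 cases, of Myc in 6 and of Ccr7 in 3. With batch as a term, edgeR still called Cd83 (adjusted p = 0.0221) but not Tnf (0.107), Lta (0.103) or Bcl2a1b (0.0986). The log2 fold change in that fit was smaller for Tnf (-0.79) and no smaller for Lta (-1.98) and Bcl2a1b (-1.38) than without the term. Irf1 (-0.20, adjusted p = 0.599), Ccr7 (-1.10, 0.277), Myc (-1.09, 0.284) and Bcl2a1d (-1.45, 0.114) were not called in that fit either.

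**Figure D5:**
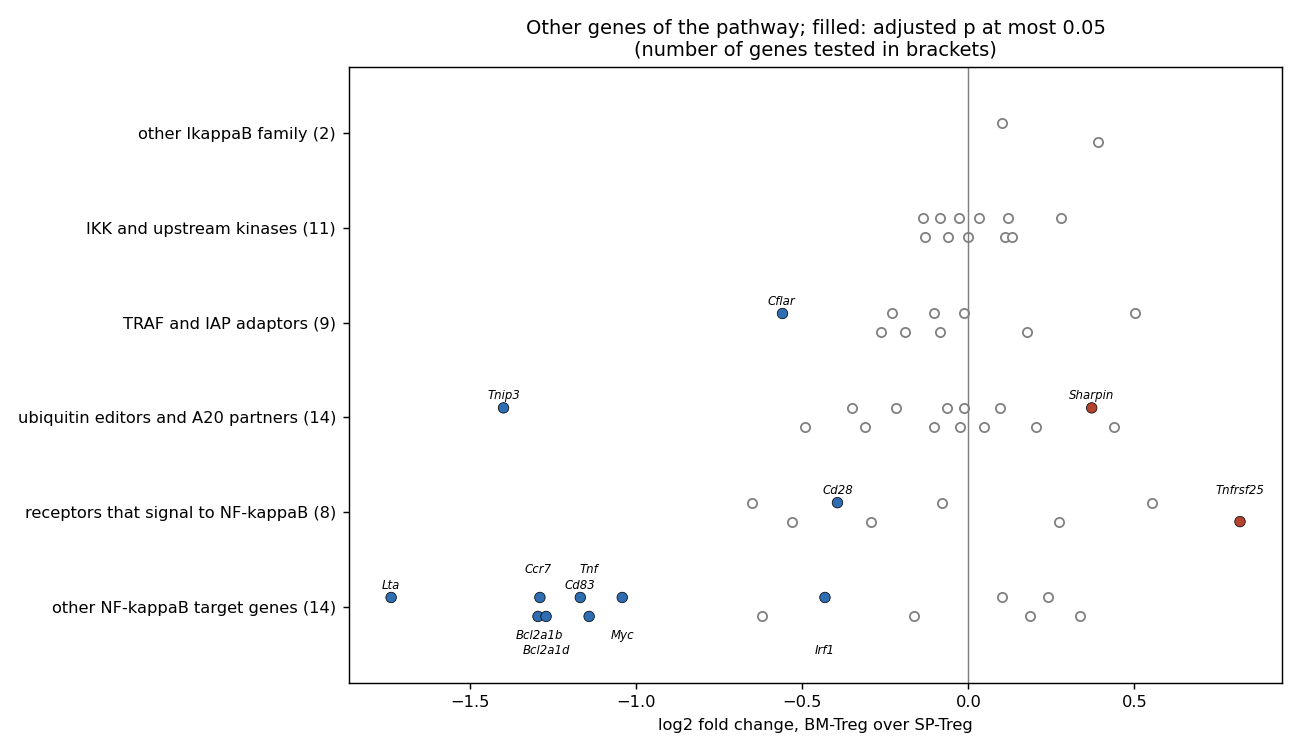
Log2 fold change of BM-Treg over SP-Treg for the 58 other genes of the pathway that were tested, by list, with the number of genes in brackets. Filled points have an edgeR adjusted p of at most 0.05 (blue lower, red higher in BM-Treg); 8 of the 11 genes called lower are in the list of target genes.

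With the tissue means removed, the correlation of log2 CPM over the 8 libraries, which share their depth and scaling, was positive for all 10 pairs of the inhibitors, from 0.29 between Nfkbie and Nfkbiz to 0.93 between Tnfaip3 and Nfkbiz. It was 0.64 between Tnfaip3 and Rel and -0.41 between Tnfaip3 and Nfkb1, and lowest among the members between Nfkb1 and Nfkbid (-0.74). The share of positive pairs over all genes is not given here, so that the count for the inhibitors is a description only. The mean z-score over the members was -0.59, -0.47, 0.40 and 0.43 in BM-Treg replicates 1 to 4 and -0.21, -0.38, 0.16 and 0.66 in SP-Treg replicates 1 to 4, with overlap between the tissues. The 5 genes whose log2 CPM was most like this mean over the 8 libraries were AC087901.1 (Pearson r = 0.97), Gm8624 (0.93), Dusp2 (0.93), Atp5j2 (0.93) and Asb2 (0.93), given as a description. AC087901.1 stayed at or below 1.61 CPM and Gm8624 at or below 3.82 CPM, where counting error is large.

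Markers of the sorted cells were high in all libraries: Foxp3 lay between 1497 and 2080 CPM in BM-Treg and between 1272 and 1721 CPM in SP-Treg, and the 7 Treg and T cell markers, led by Ikzf2, summed to between 7657 and 9214 CPM and to between 8476 and 9211 CPM. Markers of B cells, erythroid cells, neutrophils, NK cells and CD8 T cells were low beside these and differed among the SP-Treg libraries. The 7 B cell markers, led by Cd79b, summed to 16.4, 14.2, 13.6 and 16.6 CPM in BM-Treg replicates 1 to 4 and to 9.41, 112, 26.1 and 21.6 CPM in SP-Treg replicates 1 to 4. The 6 erythroid markers found, led by Hba-a2, summed to 4.98, 9.59, 7.66 and 8.69 CPM in BM-Treg and 1.51, 62.4, 130 and 79.0 CPM in SP-Treg, and the 10 neutrophil markers, led by Ngp and with Ly6g at 0 in every library, to 2.68, 4.96, 1.31 and 10.6 CPM and to 0.215, 19.1, 9.53 and 7.49 CPM. The 5 markers of NK and CD8 T cells, led by Cd8b1, summed to 12.9, 12.1, 12.52 and 10.9 CPM in BM-Treg and 14.01, 45.3, 25.1 and 19.1 CPM in SP-Treg, without overlap. Cd8a (log2 fold change -2.99, edgeR adjusted p = 0.0293) and the B cell marker Ebf1 (-2.42, adjusted p = 0.0332) were called lower in BM-Treg, the direction of Rel and of the called target genes. SP-Treg replicate 1 had the least of the B cell, erythroid and neutrophil markers and SP-Treg replicate 2 the most B cell markers. The sums over markers of monocytes and macrophages, plasma cells and plasmacytoid dendritic cells overlapped between the tissues. They lay between 137 and 246, 289 and 416, and 15.2 and 28.4 CPM in BM-Treg and between 100 and 157, 293 and 431, and 20.3 and 43.3 CPM in SP-Treg, in this order. Most of each came from Ccr2, Prdm1 and Irf8, which Treg can express themselves, so that these sums say little about other cells. Igj, a marker of plasma cells, was at up to 0.394 CPM in BM-Treg and at 0.215, 24.6, 8.95 and 5.65 CPM in SP-Treg replicates 1 to 4. The part of other cells in the values of the members was not tested.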

How the data were processed

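RNA from sorted cells was amplified with the SPIA method of NuGEN before sequencing. The submitters' processing notes name cutadapt 1.9, STAR 2.5.2a, RSEM 1.2.30 and the GRCm38 build. Of the tables the authors deposited, those of expected counts (estimates that can be fractional) and of FPKM were used, each at gene and transcript level. Expected counts were rounded, filtered with edgeR's default filter on the groups, scaled by TMM and compared in edgeR's quasi-likelihood framework without covariates (edgeR 4.0.16, limma 3.58.1, DESeq2 1.42.0, R 4.3.3), with Benjamini-Hochberg adjustment over 13397 genes. CPM uses TMM library sizes, and log2 CPM a prior count of 2. The members and lists were chosen with earlier results of these data known. The rule named all members, up to 4 called genes per list (or the gene with the smallest adjusted p) and the 5 genes most like the members; other genes were named after their values had been seen. A list of pathway genes is not reported here and was left out of the counts. Hbb-bs, Hbb-bt and Mzb1 matched no row. On simulated counts the test called 98 of 100 genes set at a fold of 4, 85 of 100 at a fold of 2 and 7 of the genes without a difference. The simulated libraries were independent and had no effect of batch or sex, so that these counts do not give the error of the test in this design. The alternatives were other size factors, tests, FPKM scales, filters and thresholds, a batch term, a replicate block and each library left out.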

Additional observations from a re-analysis of the deposited data

Results flagged for a closer look

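In 3 of 82 groups of 4 libraries a single library lay far from the other 3, where chance does so in about 1 group in 20. Nfkbie was at 74.0 CPM in SP-Treg replicate 4 and between 62.8 and 63.4 CPM in the other SP-Treg libraries, a gap of 0.948 of the whole range. Relb was at 21.97 CPM in BM-Treg replicate 3 and between 18.8 and 19.2 CPM in the other BM-Treg libraries, a gap of 0.900 of the range. The summed B cell markers were at 112 CPM in SP-Treg replicate 2 and between 9.41 and 26.1 CPM in the other SP-Treg libraries, a gap of 0.837 of the range. Neither Nfkbie nor Relb was called with all libraries.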

How the results depend on the processing

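Rel was called lower in BM-Treg in all 17 other fits at an adjusted p of 0.05. The number of members called was 2 with all libraries, and 1 (Rel) with DESeq2's size factors in edgeR, without a filter beyond 1 count, with at least 10 counts in every library, with the batch term and at an adjusted p of 0.01, 1 to 2 with a library left out, and 0 with a minimum absolute log2 fold change of 1, where Rel falls short of the size required. It was 3 in DESeq2, with Tnfaip3 higher, and 2 in limma-voom and on the FPKM scales (Rel and Tnfaip3 on the latter). Among other pathway genes, 13 were called, 2 with the batch term, 5 at an adjusted p of 0.01, 8 with the minimum fold change and 7 to 12 with a library left out, and 19 in DESeq2, 15 with at least 10 counts, 12 in limma-voom, 13 with DESeq2's size factors and 9 each on the FPKM scales and without a filter. Over all genes, 1172 were called (42.6% higher in BM-Treg), 765 and 728 on log2(FPKM + 1) and log2(FPKM + 0.1) (63.0% and 62.4% higher), 258 with the batch term, 427 at an adjusted p of 0.01, 310 with the minimum fold change 690 to 1048 with a library left out, 1703 in DESeq2, 1231 with at least 10 counts (51.3% higher), 1218 in limma-voom, 1157 with DESeq2's size factors and 1326 without a filter. Stricter thresholds and fewer libraries call fewer genes by construction, and for the other alternatives the cause was not tested. Log2 fold changes that changed sign were those of Nfkbid with the batch term (0.0454), of Nfkbia without BM-Treg replicate 4 (-0.0746, and -0.07 to 0.28 over all libraries left out in turn) and of Nfkbiz without BM-Treg replicate 4 (-0.03), SP-Treg replicate 1 (-0.09) or SP-Treg replicate 2 (-0.11, and -0.11 to 0.22 over all). Replicate numbers did not pair the libraries: BM-Treg replicates 1 to 3 are labelled female and SP-Treg replicates 1 to 3 male, so that they cannot share mice. Same-numbered BM-Treg and SP-Treg libraries correlated at -0.11, 0.06, -0.18 and 0.04 across genes, and 2 of 4 BM-Treg libraries correlated best with their own number. The replicate block treats these numbers as pairs all the same, so that nothing is concluded from its calls. With it, 948 genes, 2 members (Rel and Tnfaip3) and 12 other pathway genes were called, and the edgeR adjusted p was 0.0657 for Nfkb1 and 0.000625 for Tnfaip3.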
